A study of Mus musculus with 4 samples.

Results

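The genes described here drive DNA replication and mitosis, and were measured in mouse yolk sac at embryonic day 9.5 on Illumina bead arrays. They are 40 named genes, taken with every probe whose platform gene symbol matched, out of all genes named on an array of 45281 probes. Of the 40, 38 matched at least 1 named probe and 35 were above background and could be tested. The study compared 2 arrays labelled ETV2 CKO with 2 labelled control, all of the strain given as C57BL/6. In the first group Etv2, which encodes an ETS-family factor needed for blood and vessel formation, was deleted between loxP sites by a Cre named for Flk1 (now Kdr), so the deletion is limited to cells that had expressed Flk1. Whether the controls had the Cre, the loxP sites or neither is not stated in the labels, nor is whether an array holds 1 yolk sac or a pool. Separate litters are not named either, so the p-values reflect the spread among these 4 arrays alone, and that spread may be technical.

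A dividing cell passes from G1 into DNA synthesis when D and E cyclins, with their CDK partners, release E2F transcription factors from pocket proteins. E2F factors then raise the genes that license origins, unwind DNA and supply nucleotides, and a later wave of cyclin B, CDK1 and mitotic kinases builds the spindle and parts the chromosomes. In the yolk sac the primitive erythroblasts divide in the circulation while they fill with hemoglobin, beside dividing endoderm and mesoderm.

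Each array had 17934 to 18798 probes above background, and the test covered 10603 named genes. The raw intensity of the Etv2 probe was 206 and 227 in the CKO-labelled samples and 157 and 177 in the controls, higher on the former by 0.46 ± 0.10 on the log2 scale (SE, n = 2 a group, limma adjusted p = 0.0199). Whether that probe lies inside the deleted part is not known here, so the group names rest on the labels alone. Xist was higher by 1.05 and the Y-linked Eif2s3y lower by a log2 difference of -0.73 on the CKO-labelled arrays, so sex make-up and group cannot be told apart. Of 12 visceral endoderm markers of yolk sac, 11 were above background, Alb being the exception.

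Most of these genes did not pass the test, as was so for all genes tested. At a limma adjusted p under 0.05 (Benjamini-Hochberg over all genes tested), 4 of 35 members fell on the CKO-labelled arrays and 2 rose, together 17.1% against 25.2% of all 10603 genes. By direction the background was 10.8% lower and 14.4% higher. The genes that fell were the cyclin genes Ccne1, Ccne2, Ccnd1 and Ccnd2, and those that rose were the transcription factor gene E2f1 and the cyclin gene Ccna2. The other 29 did not pass, and the median log2 difference over the members was -0.04, against 0.02 over all genes. For 34 of the 35 the 95% interval of the difference lay within a 2-fold change either way, as it did for 93.6% of all genes. The exception was E2f2. The 2 groups did not overlap for 23 of the 35 members, 65.7% against 65.4% of all genes. Without CKO replicate 1 the counts were 1 lower and 2 higher, without CKO replicate 2 they were 4 and 1, without control replicate 1 they were 2 and 1, and without control replicate 2 they were 3 and 1. Under median scaling in place of quantile normalization 2 members were lower, since Ccnd2 and Ccne2 did not pass there. On the authors' processed values 8 members were lower and 4 higher, beside 1400 and 1679 of all 10603 genes. The share of members called was there above that of all genes, so the order of these shares depended on the processing. In yolk sac RNA, fewer cells of a type and less RNA per cell cannot be told apart.

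**Figure D1:**
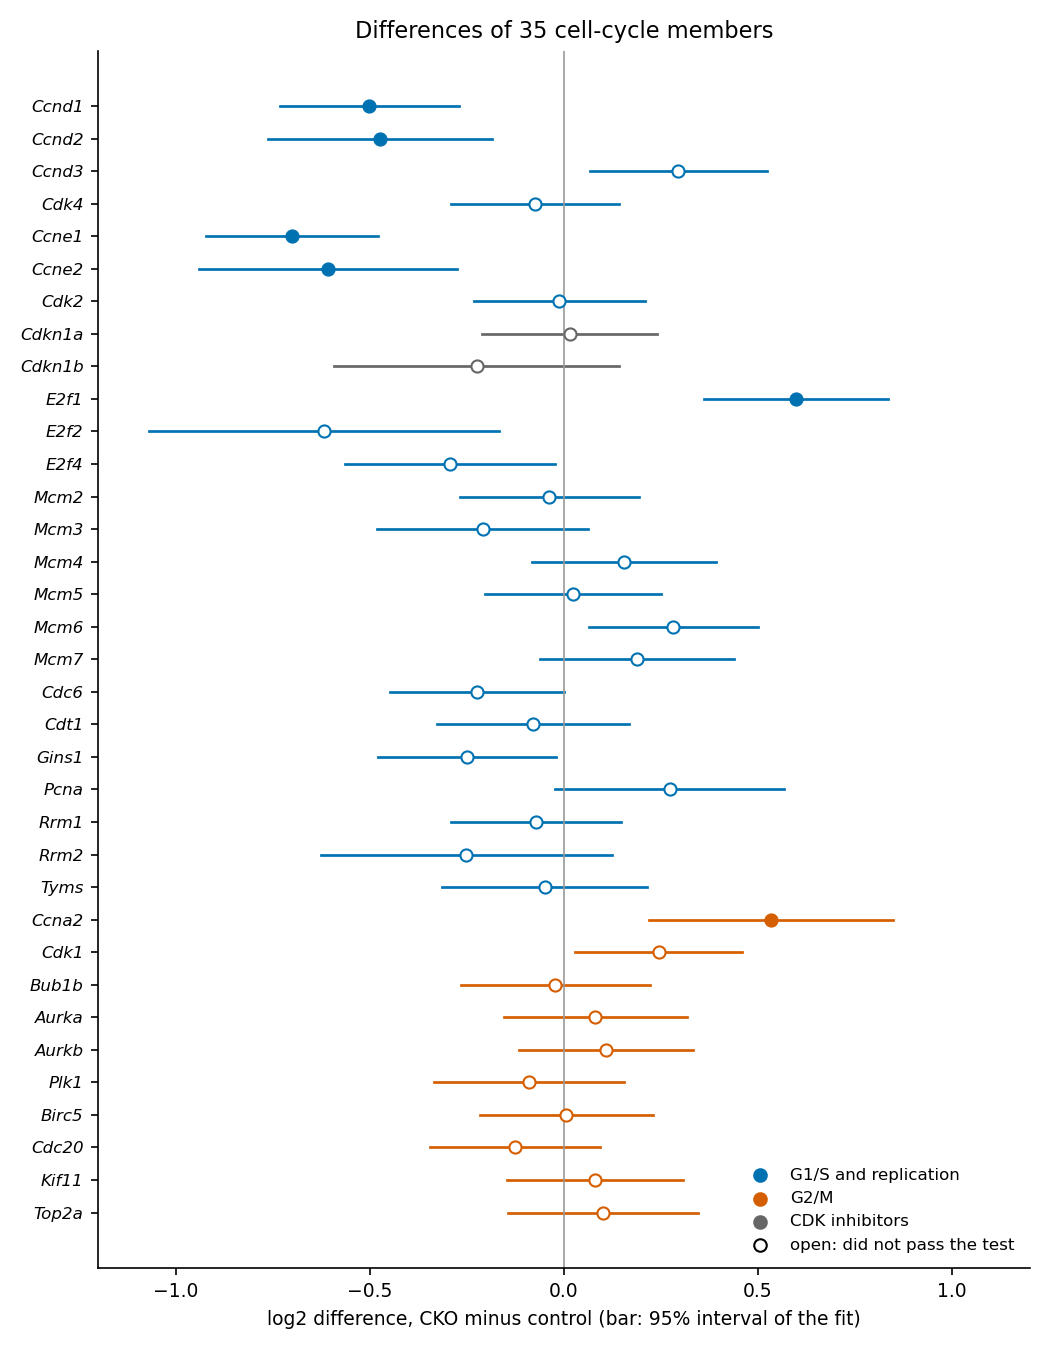
The log2 difference of each of 35 tested members (CKO-labelled minus control, x axis) with its 95% interval from the limma fit, n = 2 arrays a group, in the order of their roles from top to bottom. Blue marks G1/S and replication genes, orange G2/M genes and grey the CDK inhibitors. Filled points passed the test: Ccnd1, Ccnd2, Ccne1 and Ccne2 lie below 0, and E2f1 and Ccna2 above it.

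The members divide into 24 G1/S and replication genes, 14 G2/M genes and 2 CDK inhibitor genes, and the first 2 classes differ in the letters of their promoters. RefSeq promoter windows of build GRCm38.p6, from 250 bases before to 50 after an annotated start, were at hand for 32 members. None was at hand for Ccnd1, Ccnd2, Ccne2, Ccna2, Mcm4, E2f4, Gins1 and Aurkb, so these could not count as matches. The E2F letters were TTTCGCGC, TTTGGCGC or TTTCCCGC, on either strand. They occurred in 8 of 18 G1/S and replication genes and in 1 of 12 G2/M genes, against 2.12% of all genes with a window. A gene counted if any of its windows matched, and the 27025 genes had 32851 windows, so a gene with several had more chances to match. The cell-cycle homology letters TTTGAA or TTCGAA, on either strand, occurred in 3 of those 18 and in 10 of those 12, against 21.7% of all genes. CCAAT was found in 11 of 18 and 11 of 12, against 41.1%, and the ETS letters CCGGAAGT in 1 of 18 and 1 of 12, against 4.31%. These are matches of letters and not measured binding. An annotated start can belong to an alternative transcript, and the E2f1 window, counted here but not shown, appeared to lie in coding sequence, so some windows may not be promoters and the shares carry that limit. All 8 of the G1/S genes with an E2F match were tested, and limma called 0 of them, 2 having an unadjusted p under 0.05. Over all genes 25.2% were called, and 4136 of 10603 had an unadjusted p under 0.05. Ccnd1, Ccnd2 and Ccne2, which were called, had no window and could not enter those 8. The 0 is therefore no result about genes with E2F sites. Of the G2/M genes with a TTTGAA or TTCGAA match 7 were tested, with 0 called and 1 at an unadjusted p under 0.05. Ccna2, the only G2/M member called, had no window, so that 0 was fixed beforehand and says nothing of these letters.

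The windows below were chosen to show both kinds of start site beside the gene with the lowest difference among the members. Capitals mark E2F, TTTGAA or TTCGAA, and CCAAT letters on either strand (CCAAT reads ATTGG on the other), and no base is shared between motifs of different name. Cdc6 has 1 E2F match. Mcm5 has 2 E2F matches that overlap each other on opposite strands, and 3 CCAAT matches. Cdk1 carries all of them, with 1 E2F match, 2 of TTTGAA and 3 of CCAAT. Plk1 has 1 TTTGAA and 1 CCAAT. Ccne1 holds none of these letters in its window, which says nothing of sites elsewhere.
Cdc6, chr11:98907901-98908200, plus strand: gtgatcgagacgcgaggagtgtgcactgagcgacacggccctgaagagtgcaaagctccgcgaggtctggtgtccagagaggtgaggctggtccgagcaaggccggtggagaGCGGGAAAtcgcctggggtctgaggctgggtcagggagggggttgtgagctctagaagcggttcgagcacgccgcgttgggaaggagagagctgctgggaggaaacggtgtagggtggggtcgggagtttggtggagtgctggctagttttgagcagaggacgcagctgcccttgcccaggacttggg
Mcm5, chr8:75109259-75109558, plus strand: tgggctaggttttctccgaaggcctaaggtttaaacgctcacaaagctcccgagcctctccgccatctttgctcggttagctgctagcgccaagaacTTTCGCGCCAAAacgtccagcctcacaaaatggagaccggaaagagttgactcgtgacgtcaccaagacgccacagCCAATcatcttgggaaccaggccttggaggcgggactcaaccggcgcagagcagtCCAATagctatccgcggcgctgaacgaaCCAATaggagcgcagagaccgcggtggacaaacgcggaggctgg
Cdk1, chr10:69352863-69353162, minus strand: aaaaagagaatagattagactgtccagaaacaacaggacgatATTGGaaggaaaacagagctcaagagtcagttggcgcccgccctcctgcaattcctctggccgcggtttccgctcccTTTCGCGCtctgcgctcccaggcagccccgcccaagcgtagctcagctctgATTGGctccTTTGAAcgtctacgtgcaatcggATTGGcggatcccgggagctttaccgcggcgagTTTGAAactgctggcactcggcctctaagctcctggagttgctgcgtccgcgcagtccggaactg
Plk1, chr7:122159185-122159484, plus strand: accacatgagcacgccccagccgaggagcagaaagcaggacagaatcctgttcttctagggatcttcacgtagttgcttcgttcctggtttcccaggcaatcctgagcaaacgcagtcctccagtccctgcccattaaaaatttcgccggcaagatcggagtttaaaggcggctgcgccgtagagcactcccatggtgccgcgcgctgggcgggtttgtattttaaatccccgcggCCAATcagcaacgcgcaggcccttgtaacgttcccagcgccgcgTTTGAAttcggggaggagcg
Ccne1, chr7:38107441-38107740, minus strand: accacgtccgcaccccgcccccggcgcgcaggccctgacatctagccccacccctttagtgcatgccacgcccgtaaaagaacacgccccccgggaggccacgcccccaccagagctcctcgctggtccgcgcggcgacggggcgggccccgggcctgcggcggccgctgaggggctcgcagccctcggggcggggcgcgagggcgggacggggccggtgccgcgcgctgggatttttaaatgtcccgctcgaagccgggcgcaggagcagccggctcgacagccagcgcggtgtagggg

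The E cyclins, which with CDK2 start DNA synthesis, held the 2 lowest differences among members that passed. Ccne1 stood at normalized log2 levels of 8.81 and 8.86 on the CKO-labelled arrays and 9.51 and 9.57 in the controls. The groups did not overlap, and replicates lay much closer to each other than the groups did. Ccne1 fell by 0.70 ± 0.09 (1.62-fold, SE, n = 2 a group, limma adjusted p = 0.00443), and it passed in 13 of 13 alternatives, at differences from -0.73 to -0.52. Ccne2 was at 7.41 and 7.55 against 7.91 and 8.27, without overlap, and fell by 0.61 ± 0.14 (limma adjusted p = 0.0234). The 2 control arrays of Ccne2 were the farther apart, and its only probe had raw intensities of 261 and 312 against 305 and 402. Its difference was -0.43 without control replicate 2 and -0.31 on the authors' processed values. The call was lost without CKO replicate 1, CKO replicate 2 or control replicate 2 and under median scaling (limma adjusted p up to 0.0975). Their kinase gene Cdk2 was at -0.01 ± 0.09 by its brightest probe, with a 95% interval from -0.23 to 0.21. All 4 Cdk2 probes were below 0, and with the mean of its probes Cdk2 was called lower, at -0.37 (limma adjusted p = 0.0256).

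Among the D cyclins, which carry growth signals to CDK4 and CDK6, 2 fell and Ccnd3 did not pass. Ccnd1 was at 10.07 and 10.14 in the CKO-labelled samples against 10.66 and 10.56 in the controls. It fell by 0.50 ± 0.10 (1.42-fold, limma adjusted p = 0.0139) without overlap of the groups, and each of its 3 probes passed when tested alone, at -0.65 to -0.50. The Ccnd1 call was lost without CKO replicate 1 (-0.47, limma adjusted p = 0.0681) and without control replicate 1 (-0.45, limma adjusted p = 0.0564). Ccnd2 was at 8.34 and 8.63 against 8.98 and 8.94, so that CKO replicate 1 was the lowest array. It fell by 0.47 ± 0.12 (limma adjusted p = 0.0326), with both kept probes below 0. Over 13 alternatives its difference ran from -0.62 to -0.31, and the call was lost in 5 of them, namely median scaling, no filter, and leaving out CKO replicate 1 (-0.33), control replicate 1 or control replicate 2 (limma adjusted p up to 0.134). Ccnd3, the D cyclin prominent in maturing red cells, was at 12.91 and 12.79 against 12.57 and 12.54, a difference of 0.30 ± 0.10 that did not pass (limma adjusted p = 0.065). It did pass in 5 of 13 alternatives. Cdk4 was at -0.07 ± 0.09, and the only Cdk6 probe stayed within background on all 4 arrays.

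Of the 3 E2F genes, 1 rose and 2 did not pass. E2f1, an activator of S-phase genes, was at 9.72 and 9.85 on the CKO-labelled arrays and at 9.23 and 9.15 in the controls. It rose by 0.60 ± 0.10 (1.51-fold, limma adjusted p = 0.00844) and passed in 13 of 13 alternatives, at 0.47 to 0.66. E2f2, an activator prominent in erythroid precursors, was at 6.71 and 7.21 against 7.75 and 7.41. All 4 E2f2 arrays were above background, the groups did not overlap, and the replicates of each group were far apart. The E2f2 difference of -0.62 ± 0.19 did not pass (limma adjusted p = 0.055), but it passed in 8 of 13 alternatives, and a second probe with a difference of -0.79 passed over all probes (limma adjusted p = 0.0162). E2f4, which acts mainly as a repressor with pocket proteins, was at -0.29 ± 0.11 and did not pass (limma adjusted p = 0.104), though it passed as lower in 4 of 13 alternatives.

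Neither CDK inhibitor gene passed. Cdkn1a, a p53 target that stops the cycle, was at 8.65 and 8.64 on the CKO-labelled arrays and 8.58 and 8.68 in the controls, with overlapping groups and a difference of 0.01 ± 0.09. Its 95% interval ran from -0.21 to 0.24. Cdkn1b, which restrains CDK2 in resting cells, was at -0.22 ± 0.15 by a single probe near background, also with overlapping groups.

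Genes of origin licensing and the replicative helicase did not pass. limma called 0 of 9, against 25.2% of all genes, and 2 had an unadjusted p under 0.05, namely Mcm6 and Gins1. The groups did not overlap for 6 of the 9, a share of 66.7% beside 65.4% of all genes. Among the 13 alternatives Mcm6 passed as higher in 5, Gins1 as lower in 3 and Cdc6 as lower in 2. The MCM genes encode the 6 subunits of the helicase ring, and their differences were -0.04 for Mcm2, -0.21 for Mcm3, 0.15 for Mcm4, 0.02 for Mcm5, 0.28 for Mcm6 and 0.19 for Mcm7. By its brightest probe each of these 6 had a 95% interval within 0.5 either way on the log2 scale, as had 5566 of all 10603 genes. A second Mcm7 probe was at -0.37. With the mean of the kept probes Mcm6 and Mcm7 were at -0.12 and -0.09, and Mcm4 at 0.07. Mcm5 was at 12.52 and 12.45 in the CKO-labelled samples against 12.51 and 12.42 in the controls. Mcm6 was at 11.77 and 11.81 against 11.52 and 11.50. The Mcm5 groups overlapped and the Mcm6 groups did not. The loading factor genes Cdc6 and Cdt1 stood at -0.22 ± 0.09 and -0.08 ± 0.10, and Gins1, a subunit gene of the complex that activates the helicase, at -0.25 ± 0.10.

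The genes of the sliding clamp and of nucleotide supply did not pass either, with 0 of 4 called by limma, against 25.2% of all genes, and 0 at an unadjusted p under 0.05. Pcna, the clamp gene, was at 9.10 and 9.30 in the CKO-labelled samples against 8.81 and 9.04 in the controls, a difference of 0.27 ± 0.12 that passed as higher in 2 of 13 alternatives. The ribonucleotide reductase genes Rrm1 and Rrm2 were at -0.07 ± 0.09 and -0.25 ± 0.16, and the thymidylate synthase gene Tyms was at -0.05 ± 0.11. For Rrm2, CKO replicate 1 at 9.95 lay beside the control arrays at 9.96 and 9.98, and CKO replicate 2 lay apart at 9.49.

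Among the mitotic cyclins and their kinase, Ccna2 alone passed. Ccna2, the cyclin gene of S phase and G2, was at 6.45 and 6.78 on the CKO-labelled arrays and 6.03 and 6.14 in the controls. It rose by 0.53 ± 0.13 (1.45-fold, limma adjusted p = 0.0299) from a dim probe, with raw intensities of 181 and 225 against 145 and 161, where the medians of all probes were 108.8 to 125.1. On the authors' processed values its difference was 0.14, and without CKO replicate 2 it was 0.37. It was lost there, without either control array and with no filter (limma adjusted p up to 0.117). Cdk1, the kinase gene of mitotic entry, was at 12.25 and 12.27 against 12.02 and 12.01. Its difference of 0.24 ± 0.09 exceeded the gap between replicates and did not pass (limma adjusted p = 0.094), though it passed in 4 of 13 alternatives.

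Spindle and checkpoint genes did not pass. By their brightest probes, limma called 0 of 7 tested, against 25.2% of all genes, with 0 at an unadjusted p under 0.05. All 7 had a 95% interval within 0.5 either way on the log2 scale, as had 5566 of all 10603 genes. The survivin gene Birc5, which encodes a subunit of the complex that corrects spindle attachment, was at 12.24 and 12.21 on the CKO-labelled arrays and at 12.26 and 12.18 in the controls, a difference of 0.01 ± 0.09. The kinase genes of that complex and of the spindle poles, Aurkb and Aurka, were at 0.11 and 0.08. The polo kinase gene Plk1 was at -0.09, the checkpoint kinase gene Bub1b at -0.02, the anaphase activator gene Cdc20 at -0.13 and the spindle motor gene Kif11 at 0.08. Top2a, whose enzyme untangles chromosomes, was at 0.10 ± 0.10 and did not pass. Bub1 and Ccnb2 stayed within background on all 4 arrays by each of their probes, and Ccnb1 and Mki67 matched no named probe here, so the mitotic cyclin B genes and the proliferation marker Ki-67 are not described by these values.

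**Figure D2:**
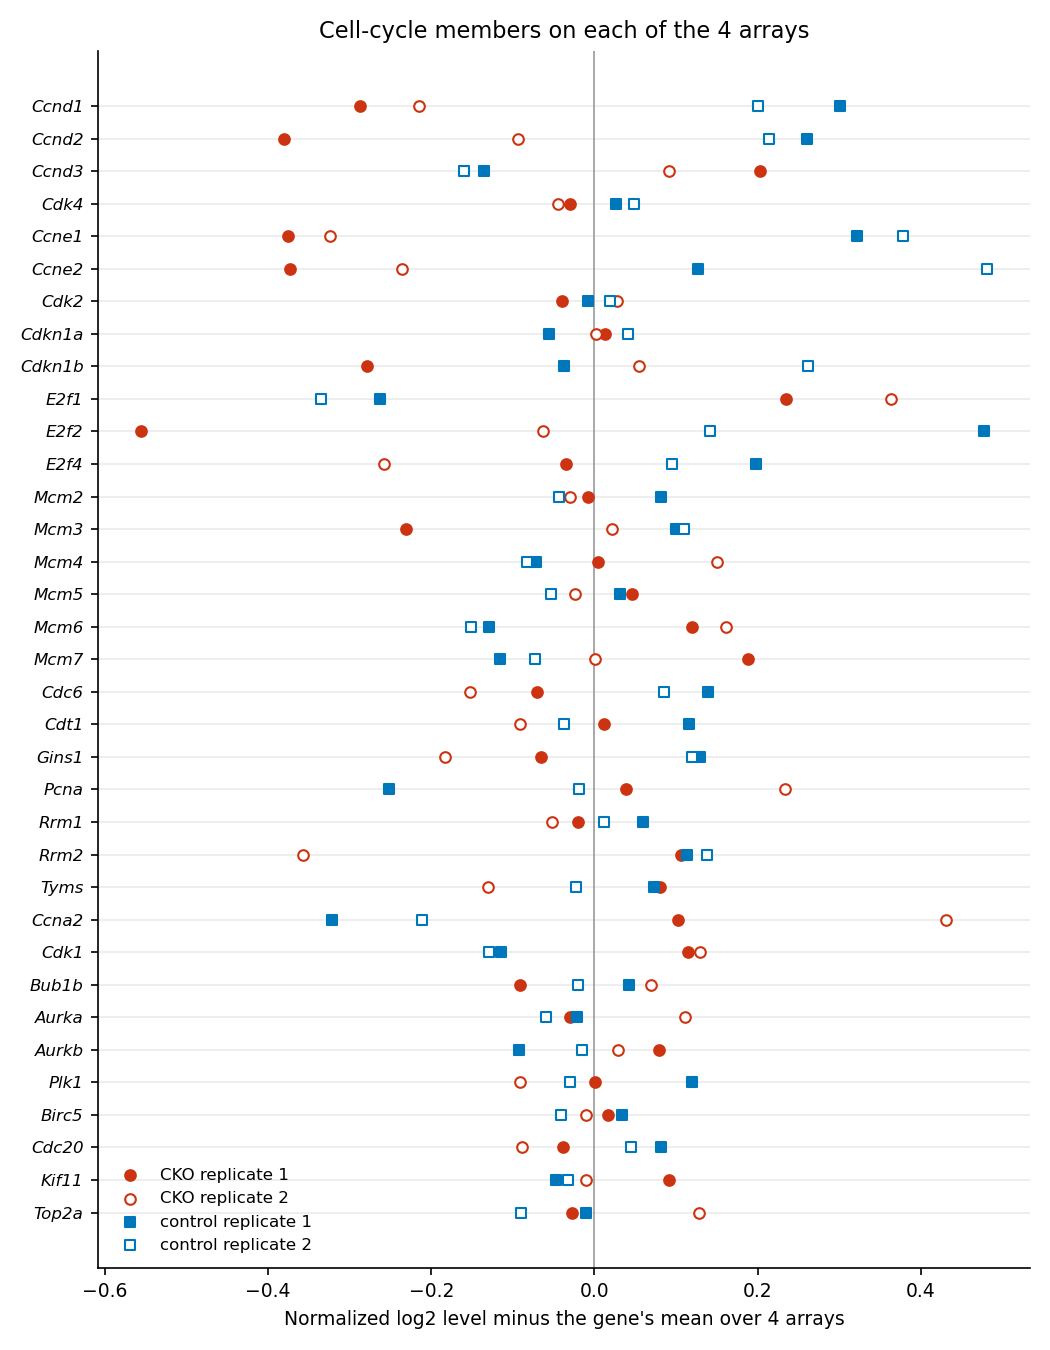
Normalized log2 level of each of 35 tested members on each of the 4 arrays, minus the gene's mean over the arrays (x axis). Circles are CKO-labelled and squares control arrays, and replicate 1 is filled. For Ccne1 and E2f1 each pair of like symbols lies together and apart from the other pair, whereas for Birc5, Mcm5 and Cdkn1a the symbols mix.

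Read as classes, the G1/S and replication genes and the G2/M genes had medians on opposite sides of 0, with genes of each class on both sides. The median log2 difference was -0.07 over 23 G1/S and replication genes, of which 16 were below 0, and 0.08 over 10 G2/M genes, of which 7 were above 0. The first was -0.18 with the mean of the kept probes. Without CKO replicate 2 the medians were -0.045 and 0.021, beside 0.030 over all genes, so the G2/M median was then not above that of all genes. Without control replicate 1 the first was -0.047. Over all 10603 genes the median was 0.02, with 5001 below and 5602 above 0. Of the 23 G1/S and replication genes, 4 fell, 1 rose and 18 did not pass, and of the 10 G2/M genes 1 rose and 9 did not pass, or 21.7% and 10.0% called against 25.2% of all genes. The mean log2 level of the G1/S and replication class was 10.20 and 10.21 in the CKO-labelled samples and 10.33 and 10.31 in the controls. That of the G2/M class was 10.59 and 10.64 against 10.53 and 10.51. Each class mean thus kept its groups apart, in opposite directions, as a description with no test. The mean over all 10603 genes also kept its groups apart, at 8.32 and 8.31 in the CKO-labelled samples against 8.28 in both controls. Separation of the groups is thus not particular to these classes. Without the D cyclins and their kinases the first median was again -0.07, over 19 genes. It was -0.04 over the 9 origin and helicase genes and -0.06 over the 4 clamp and nucleotide genes.

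Further genes of replication and mitosis came from 2 lists outside the 40. Of 42 tested further replication genes, 2 fell, 1 rose and 39 did not pass (7.14% against 25.2% of all genes), with a median log2 difference of -0.03. Gmnn, whose protein geminin holds back CDT1, fell by 0.54 ± 0.12, the origin recognition gene Orc4 fell by 0.50 ± 0.10, and the fork protection gene Timeless rose by 0.37 ± 0.09 (limma adjusted p from 0.0142 to 0.0315). Of 44 tested further mitosis genes, 3 fell, 3 rose and 38 did not pass (13.6%), with a median of 0.02. Among the 3 that fell, 1 was above background on the control arrays alone and was kept for the test through them. The condensin gene Smc2 fell by 0.64 ± 0.12 and the S-phase and G2 factor gene Mybl2 by 0.52 ± 0.10, while the spindle protein gene Nusap1 and the G2/M factor gene Foxm1 rose by 0.38 each (limma adjusted p from 0.0116 to 0.0409).

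Of 16 tested genes of a further G1 control list 3 fell and 3 rose (37.5% against 25.2% of all genes), with a median of -0.06. Ccng2, a cyclin-like gene of resting cells, rose by 0.96 ± 0.14, and Cdkn1c, an imprinted CDK inhibitor gene, rose by 0.57 ± 0.09. The growth factor-responsive gene Myc was not above background on the CKO-labelled arrays and was at least 1.51-fold lower there (limma adjusted p = 0.00558). Myc was kept for the test through the control arrays alone, where it was the higher, so its p-value carries that selection. E2f3, a further activating E2F gene, fell by 0.49 ± 0.10 (limma adjusted p = 0.0149).

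**Figure D3:**
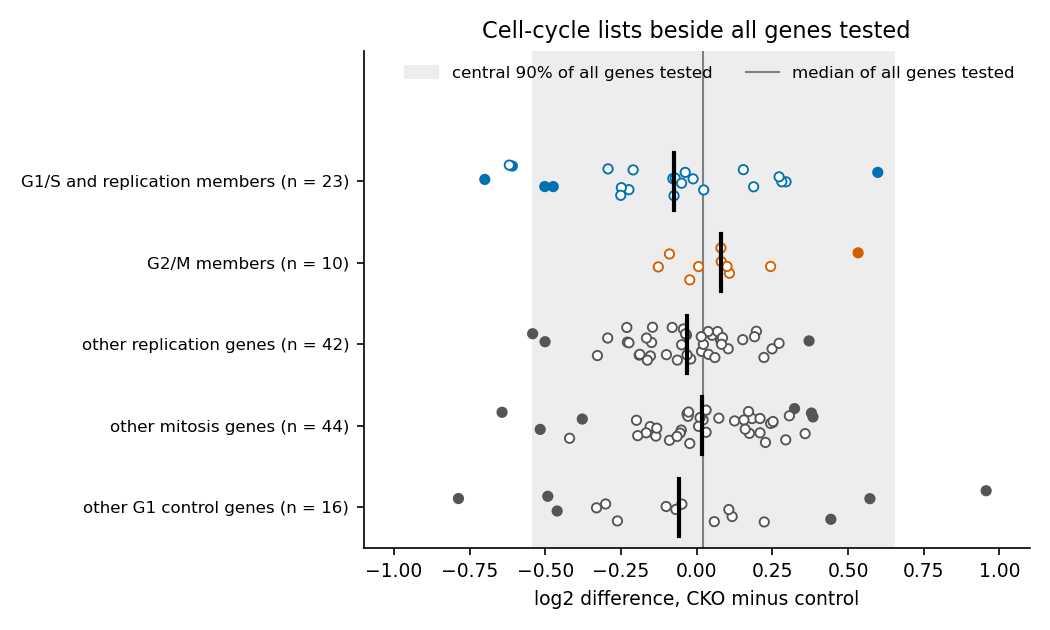
The log2 difference of each tested gene (CKO-labelled minus control, x axis) in the 2 classes of members and in 3 further lists, with vertical position within a row carrying no value. Black bars are list medians, filled points passed the test, and the grey band holds the central 90% of all genes tested, from -0.54 to 0.65.

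Probes of one gene did not always give the same difference. The values above come from the brightest probe, and Ccne1 and E2f1 each had a single probe. Several probes above background were at hand for 19 members. For 8 of these 19 the probes lay on both sides of 0, and for 5 some probes passed and others did not, with 20.9% of all 18817 kept probes passing. Both Cdk2 probes that passed as lower, at -0.73 and -0.58, were dimmer than the other pair (limma adjusted p over 18817 probes of 0.00826 and 0.019). The brighter pair stood at -0.01 and -0.16. On the dimmest of these Cdk2 probes the log2 levels were 6.73 and 6.63 in the CKO-labelled samples against 7.39 and 7.42 in the controls. The Ccnd3 probes gave 0.30 on the brightest, -0.44 on a second and 0.63 on the dimmest, and the latter 2 both passed over all probes in opposite directions. That bright Ccnd3 probe is annotated to a different RefSeq transcript than the other 2. Each of the 4 kept probes was below 0 for Cdc20 and for Tyms. For each of these genes 1 dimmer probe passed, at -0.43 for Cdc20 and -0.39 for Tyms (limma adjusted p over all probes of 0.0348 and 0.0499), and the mean over its probes, -0.22 and -0.25, did not. For Mcm6 the 4 probes ranged from -0.56 to 0.28, none of them past the test, and the mean over its probes was -0.12. With the mean of the kept probes in place of the brightest, the median of the G1/S and replication genes was -0.18, and 6 members were lower and 2 higher. Of all 10603 genes 1220 were then lower and 1445 higher. Which transcripts each probe reads was not tested.

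**Figure D4:**
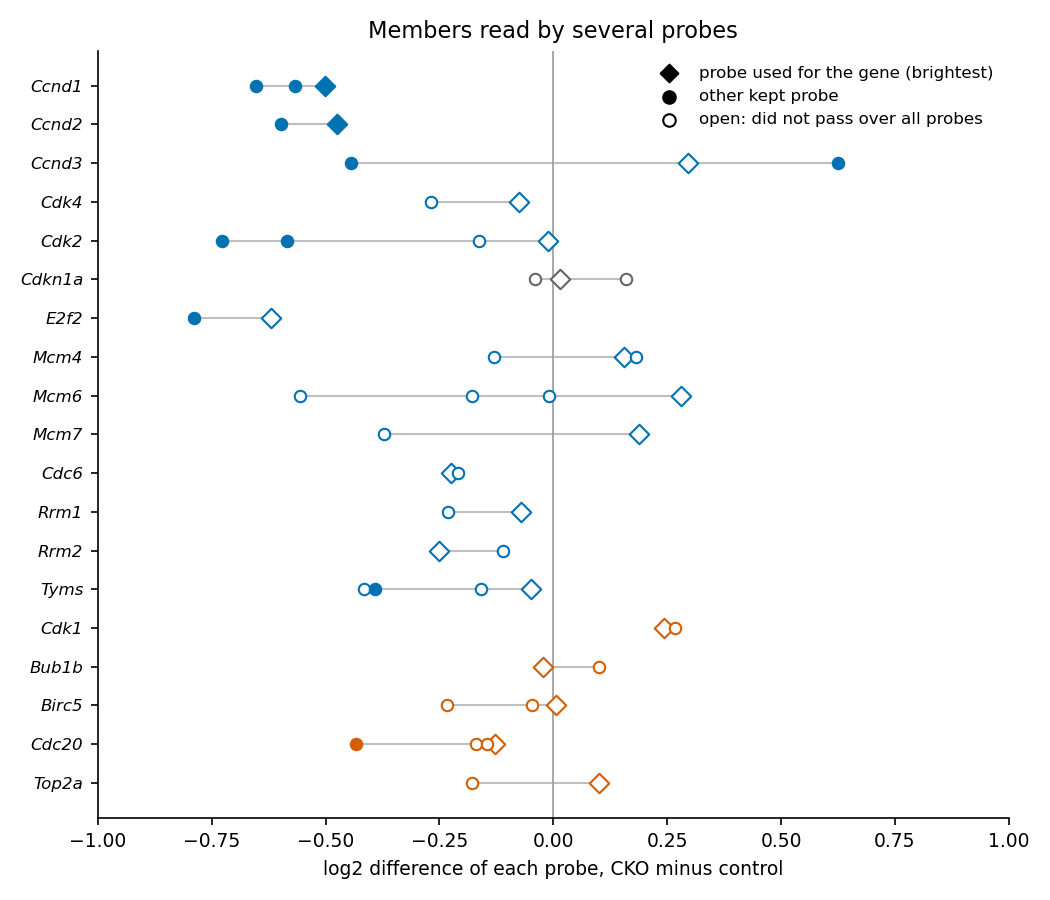
The log2 difference of every probe above background (CKO-labelled minus control, x axis) for the 19 members with several such probes. Diamonds mark the brightest probe, used for the gene, and filled symbols passed the test over all kept probes, with G1/S and replication genes in blue, G2/M genes in orange and Cdkn1a in grey. The 3 Ccnd1 probes sit together, and those of Ccnd3, Cdk2 and Mcm6 spread widely.

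Markers of several cell types moved between the same arrays. The counts below stand beside 10.8% of all 10603 genes called lower and 14.4% called higher. Of 12 tested erythroid markers 8 fell, among them Tfrc, Klf1, Rhag and Gata1 at log2 differences of -1.71 to -1.16, and their summed linear signal was 99536 to 99767 on the CKO-labelled arrays and 108484 to 108571 in the controls. The globin genes Hba-x, Hba-a1, Hbb-y and Hbb-bh1, at log2 levels of 14.33 to 14.53, carry most of that sum and did not pass, with differences of -0.05 to 0.02. Hba-a1 had 1 value on both CKO-labelled arrays (14.50) and 1 on both controls (14.53), as quantile normalization gives to equal ranks. These levels lie near the top of the scale, where little room is left for a difference, so a change in globin RNA cannot be judged from them. The mean log2 level of the list was 10.63 to 10.69 against 11.30 in both controls. Of the erythroid markers, Epb42 was not above background. Of 11 parietal endoderm markers 10 rose, led by Plat, Lama1, Nid1 and Pth1r at 1.16 to 1.70, with summed signals of 32149 to 32859 against 18678 to 18817. Of 6 trophoblast giant cell markers, cells that replicate DNA without dividing, 5 rose and 1 fell (sums of 2004 to 2235 against 415 to 474, Ctsq not above background), with Prl2c2, Prl2c3 and Prl2c4, near-identical copies that probes may not tell apart, at 2.91 to 3.17. Among the 5 that rose, 1 was kept for the test through the CKO-labelled arrays alone. Of 10 mesenchyme markers 8 rose, with sums of 29935 to 30529 against 23311 to 23739, Postn not being above background. Of 11 endothelial markers 4 fell and 1 rose (sums of 9302 to 9391 against 9847 to 9975), Kdr not being above background. Of 6 macrophage markers 2 fell, Fcgr3 and Mpo (log2 differences of -1.73 and -0.64), and 2 rose, Csf1r and Lyz2 (1.13 and 0.42). The Lyz2 probe was near background and was kept for the test through the CKO-labelled arrays alone, where it was the higher. The macrophage sums were 639 to 706 against 1081 to 1159, but the mean log2 levels overlapped (6.50 and 6.40 against 6.45 and 6.58). Adgre1, Ptprc and Aif1 were not above background. Of 11 tested visceral endoderm markers 1 fell and 10 did not pass (101797 to 103685 against 103772 to 104303). The part of these shifts in the values of the cell-cycle genes was not tested.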

How the data were processed

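Total RNA of 4 yolk sac samples was measured on Illumina bead arrays. Per the file headers, the authors' table gives each probe's intensity without normalization, on a linear scale, with a detection p-value beside each intensity. Each detection column was tied to the signal on its left: along rising signal it went up at most 1 time, against at least 15631 times for another array's signal. The authors' processed intensity values, quantile normalized as judged from the values, served as an alternative. The submitters' processing notes list lumi 2.15.1 with no role. No further step was stated in the labels. Of the probes, 34885 carry 1 gene symbol, 18 several and 10378 are unnamed here.

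Signals were background-corrected and quantile normalized with neqc of limma 3.58.1 in R 4.3.3 (offset 16, log2). A probe was kept if 2 or more of the 4 arrays detected it at p under 0.05, which left 18817, and each gene was read by its brightest probe. Groups were compared with lmFit and eBayes of limma, 2-sided, and p-values were adjusted (Benjamini-Hochberg) across all 10603 genes. The procedure was tested on simulated data. The median standard error was 0.105, and an exact permutation test of 2 against 2 cannot go below 0.333. A gene not above background in 1 group is given as "at least N-fold": the bright group's mean against the dim group's mean of, per array, its own value or the lowest signal above background, whichever was higher. The offset pulls changes of dim genes towards 0, and the number of arrays limits precision.

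Members, lists, tests and motifs were chosen with earlier results of these data known. All 40 members are named, and from each other list up to 4 genes past the threshold with the largest difference. Samples that share a replicate number are not said to be paired, and their deviations correlated at 0.066.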

Additional observations from a re-analysis of the deposited data

How the results depend on the processing

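Only 4 arrays stand behind each value, and Ccna2 and Cdkn1b were read near background. Over all genes, 1144 were lower and 1527 higher, 57.2% of calls being higher, and 649 and 1535 (70.3% higher) under median scaling. The count of members lower, 4 as reported, was 2 under median scaling, 8 on the authors' values, 8 when no background was corrected and 7 with trend and robust eBayes. The count of members higher, 2 as reported, was 6 without background correction, 5 with an offset of 50, 4 on the authors' values, 1 with no filter, 4 with detection on all 4 arrays and 6 with trend and robust eBayes. Calls over all genes moved too. Lower and higher, they were 1400 and 1679 on the authors' values and 1602 and 1982 without background correction. With trend and robust eBayes they were 1640 and 2034, and with an offset of 50 they were 1475 and 1919. They were 908 and 1212 of 19057 genes with no filter. With detection on all 4 arrays they were 1325 and 1620 of 8633. Averaging the kept probes moved the G1/S and replication median from -0.075 to -0.18. Testing every kept probe apart was added after seeing the data. With 1 array left out in turn, where the lone array is assumed to vary like the other group, 545 to 671 genes were lower and 751 to 1013 higher, and 1 to 4 members lower and 1 to 2 higher. The G1/S and replication median then ran from -0.10 to -0.045 and the G2/M median from 0.021 to 0.071. With the replicate number as a block (replicate block), 4 members were lower and 2 higher, and 1164 and 1561 genes. It changed no call among the members. No call among the members reversed in direction under any alternative run. Ccne1 and E2f1 passed under all 13. Each was read by a single probe, so averaging probes left their differences as they were, and all alternatives drew on the same 4 arrays.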

Other observations

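Of 10 tested p53 target genes 2 rose and 1 fell at a limma adjusted p under 0.05, or 3 of 10 against 25.2% of all genes, with a median log2 difference of 0.02. Bbc3, which encodes the death-promoting protein PUMA, rose by 0.56 ± 0.12 and the stress response gene Sesn1 rose by 0.34 ± 0.10, while Phlda3, an inhibitor gene of AKT signalling, fell by 0.50 ± 0.13 (SE, n = 2 a group, limma adjusted p from 0.0187 to 0.0476).

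Of 7 tested checkpoint genes 1 rose and 6 did not pass, or 14.3% called against 25.2% of all genes. Wee1, the kinase gene that holds CDK1 inactive before mitosis, rose by 0.44 ± 0.12 (limma adjusted p = 0.0423). The median log2 difference of the checkpoint genes was 0.03.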
